A study of Mus musculus with 22 samples.

Results

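The lipid droplet coat and growth proteins were followed here as 9 genes: the perilipins Plin1, Plin2, Plin3, Plin4 and Plin5, the CIDE family members Cidea and Cidec, seipin (Bscl2) and Fitm2. They were grouped by gene family and function, and make up 9 of the 30170 genes in the count table. RNA had been sequenced from C3H 10T1/2 cells, a mouse mesenchymal stem cell line able to form adipocytes, carrying DNMT3A WT, the substitution W330R, or the double substitution W330R-R181E. DNMT3A is a de novo DNA methyltransferase, and W330R lies in its PWWP domain, which reads methylated histone tails. Differentiation was started in a medium with insulin, dexamethasone, isobutylmethylxanthine and troglitazone, an agonist of the adipocyte regulator PPARG, and was continued after day 2 with insulin alone. WT and W330R cells were measured undifferentiated and at days 2, 4 and 6, and W330R-R181E cells at days 2, 4 and 6, giving 11 conditions with 2 libraries each. The labels do not say whether the libraries of a condition came from separate cultures or how many clones carried a substitution, so the p-values below measure only the spread between these libraries.

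Adipocytes store triglyceride in lipid droplets, which bud from the endoplasmic reticulum and are covered by a single layer of phospholipid. Seipin and FIT2, the product of Fitm2, act at the endoplasmic reticulum where droplets form, the perilipins coat the droplet and control the access of lipases, and CIDE proteins at droplet contacts pass lipid from small droplets to large ones. Perilipin 1 and CIDEC are typical of fat cells, perilipin 2 and perilipin 3 are found in most cell types, and perilipin 5 and CIDEA are typical of tissues that burn fat.

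The libraries held 8859501 to 47453908 counts on genes, with a median of 19355792, and 14520 genes passed the filter on low counts. All 9 members passed, although Cidea and Plin5 did so with at most 44 and 22 counts in a library. Values below are counts per 1000000 (CPM) after TMM normalisation, differences are log2 fold changes ± SE, and adjusted p-values come from edgeR's quasi-likelihood test with Benjamini-Hochberg adjustment over all 14520 genes. A gene was called at an adjusted p under 0.05. Calls are from the main fit, of all 22 libraries with 1 mean per condition and no block for replicate number, unless another is named. The adipocyte markers Adipoq, Cebpa, Fabp4, Lpl, Lep, Pparg and Retn summed to between 51.6 and 59.7 CPM in the undifferentiated libraries and between 1148 and 7456 CPM later, although Lep, the leptin gene, had 1 count in all. Markers that define muscle, epithelial and myeloid cells (Myod1, Epcam and Tyrobp) were at 0 in all 22 libraries, and none of the other muscle, epithelial, leukocyte and endothelial markers exceeded 15.96 CPM (Pecam1). Dnmt3a RNA was present in every library, at 68.5 to 347 CPM, which does not check the substitutions.

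The RefSeq promoter table (build GRCm38.p6) held windows for 8 of the 9 members, all but Cidea. There were 12 windows in all, with more than 1 for Plin5, Cidec and Bscl2. In the 250 bases before each start, both strands were searched for an AGGTCA direct repeat with 1 base between the repeats, the element bound by PPARG with its partner RXR, for TTGCNNAA, a form of the element bound by C/EBP proteins, and for CACGTG, the E-box. Matches were found in 3 genes and are shown as the sites present. The windows of Plin3, Plin4, Plin5, Bscl2 and Fitm2 held no match, and Fitm2 and Plin4 are also among the genes that differed between genotypes below. The motif is in capitals, lines are written 5′ to 3′ along the gene, and all 3 genes lie on the minus strand.
Plin1 distal site, chr7:79732945-79732974: ccacctctttaTTGCCTAAacatcccccat
Plin1 proximal site, chr7:79732816-79732845: tctgagaggcaTTGCCCAAgattccctgga
Cidec site, chr6:113434944-113434973: ggagggctctaTTGCTCAAgggcccatggg
Plin2 site, chr4:86670264-86670292: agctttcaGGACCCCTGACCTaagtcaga
The distal Plin1 site lay outside annotated genes and the proximal one in an exon annotated for another Plin1 transcript. The Cidec site lay in an annotated Cidec intron, in the window that begins at chr6:113434765. The other Cidec window, which begins at chr6:113435761, held no match. The Plin2 site lay outside annotated genes, read on the strand opposite to the gene, and differed from the direct repeat at 2 positions. Of 32851 promoter windows of this length, 9.56% held TTGCNNAA, 3.24% a direct repeat with at most 2 mismatches, 0.0335% an exact direct repeat and 6.02% CACGTG. A match of this kind is a description of the sequence and not a binding site measured here.

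Plin1 and Cidec were not detected before differentiation and were abundant at day 2. Plin1 had 0 counts in all 4 undifferentiated libraries, which at their depth allows at most 0.134 to 0.347 CPM. At day 2 it stood at 48.9 and 86.2 CPM in WT and at 46.6 and 66.2 CPM in W330R cells. Both pairs lay far above the undifferentiated limit, at least 339.6-fold higher in WT and at least 190.4-fold higher in W330R. Cidec likewise had 0 counts in the undifferentiated libraries and reached 375 and 428 CPM in WT and 217 and 218 CPM in W330R at day 2, at least 2017-fold and at least 735-fold higher.

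Plin2, Plin4, Fitm2 and Bscl2 were already expressed before differentiation and rose from there in WT. Plin2 lay at 221 and 214 CPM in undifferentiated WT cells and at 1641 and 3743 CPM at day 2, a log2 fold change of 3.63 ± 0.59 (adjusted p = 0.000173). In W330R it went from 254 and 253 CPM to 1125 and 1323 CPM, or 2.27 ± 0.56 (adjusted p = 0.00421). Both day 2 pairs lay above every undifferentiated library. Fitm2 went from 32.8 and 34.0 CPM to 315 and 397 CPM in WT (3.41 ± 0.25, adjusted p = 1.72e-07) and from 26.1 and 31.3 CPM to 249 and 220.3 CPM in W330R (3.03 ± 0.25, adjusted p = 6.45e-07). Bscl2, at 10.9 to 14.9 CPM before differentiation, rose by 1.26 ± 0.22 in WT and by 1.48 ± 0.23 in W330R (adjusted p = 0.000345 and 0.000117). Of exon length, Bscl2 shares 6.75% with Gng3 on the opposite strand and 4.05% with an overlapping gene on the same strand, and Fitm2 5.72% with an antisense transcript. Whether counts were assigned by strand is not known, so part of their counts may belong to these genes.

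Plin4, the perilipin with a long repeat of amphipathic helices, was called at this step in WT and not in W330R. In WT it rose from 218 and 209.9 CPM to 796 and 1110.2 CPM, a log2 fold change of 2.16 ± 0.36 (adjusted p = 0.000202). In W330R it stood at 458 and 472 CPM before differentiation and at 592 and 676 CPM at day 2, a difference of 0.45 ± 0.34 that did not pass (adjusted p = 0.302). These W330R pairs did not overlap, and an edgeR fit of those libraries alone called the rise (0.45 ± 0.11, adjusted p = 0.0196). A smaller rise in W330R is therefore not excluded by the missing call. The undifferentiated pairs did not overlap between genotypes, and that difference is tested further below. Plin3, which coats nascent droplets in most cells, stayed between 102 and 185 CPM in all 22 libraries and was called in none of the comparisons.

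In all, 7 of the 9 members rose from undifferentiated to day 2 in WT, where 26.5% of all genes were called higher, and 6 of 9 rose in W330R, where 25.1% were. Of these, Plin1, Cidec and Plin5 had at most 3 counts in each undifferentiated library. They passed the filter only through libraries of days 2 to 6, so a rise was the only change that could be called. Their calls and folds are therefore no independent support. Over the 8 members other than Cidea, which had too few counts for a fold, with Plin1 and Cidec at their lower bounds, the median log2 fold change was 2.88 in WT against 0.06 for all genes, and 2.65 in W330R against 0.08. Both medians include Plin1, Cidec and Plin5, so they are no independent support either. Among Plin2, Plin3, Plin4, Bscl2 and Fitm2, log2 fold changes ran from -0.24 (Plin3) to 3.63 (Plin2) in WT. In W330R they ran from -0.39 (Plin3) to 3.03 (Fitm2). The gene called in WT and not in W330R was Plin4, and Plin5 was called in both at very low counts. Plin5 had 6 counts in undifferentiated WT libraries and 32 at day 2, a ratio of 5.37 with a 95% counting interval of 2.22 to 15.7, and its call was lost without WT undifferentiated replicate 2 (adjusted p = 0.098). The undifferentiated columns of the table follow another naming scheme than those of days 2 to 6, and whether they were sequenced with them cannot be told apart from the step itself.

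**Figure D1:**
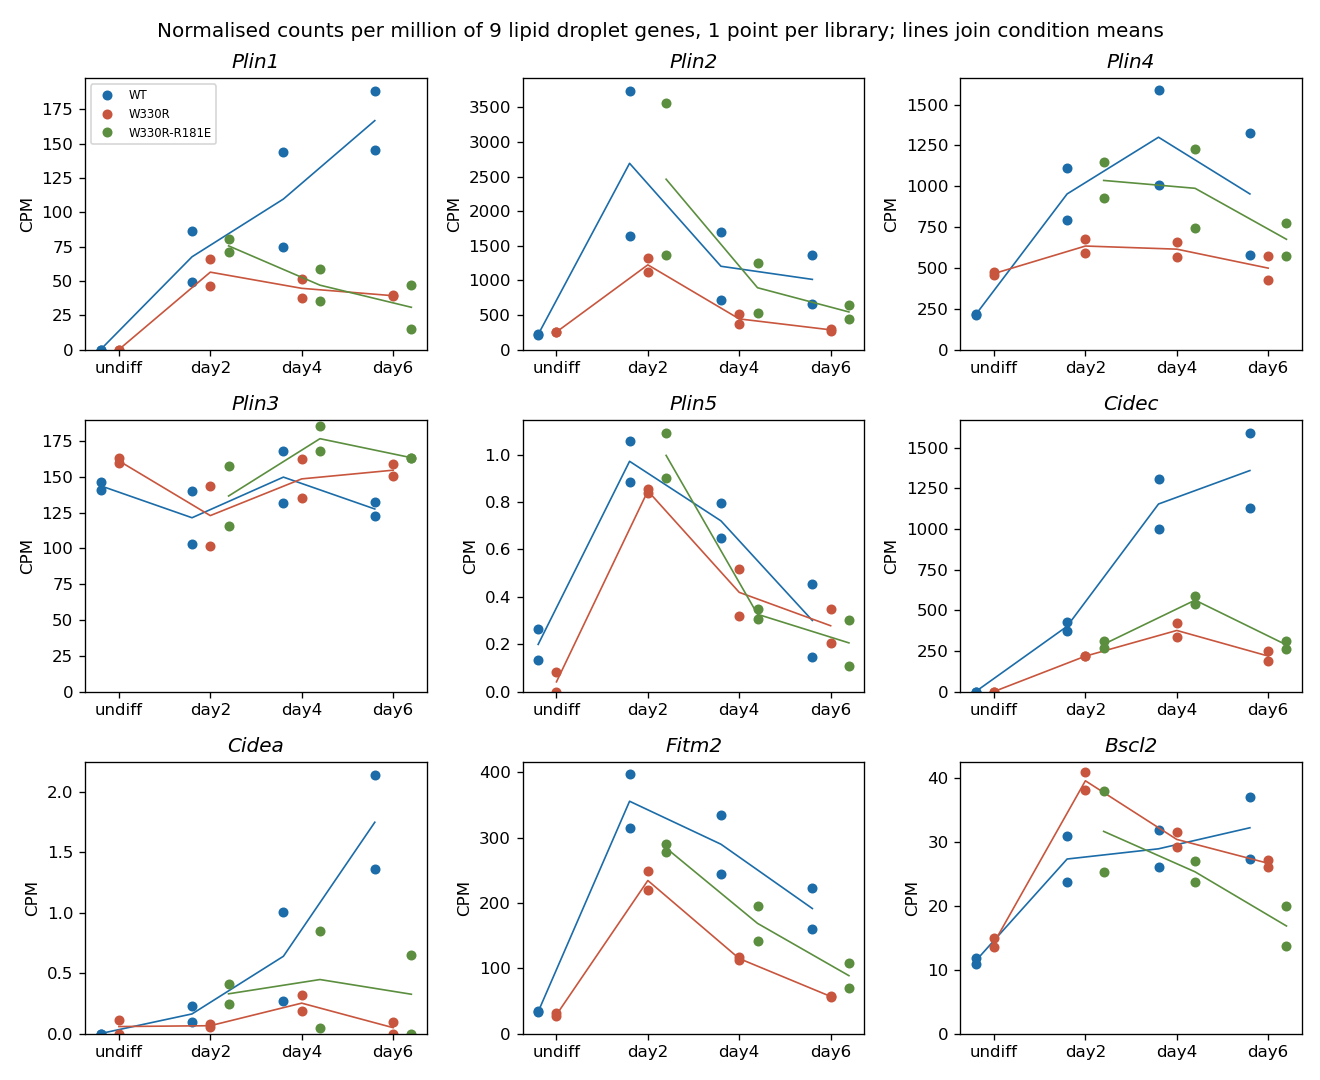
Each panel shows 1 gene, with stage on the horizontal axis and TMM-normalised CPM on the vertical axis, which starts at 0; each point is 1 library and lines join the means of the 2 libraries of a condition. In WT, Cidec and Plin1 had their highest means at day 6 (Cidec 1129.8 and 1588 CPM), whereas Plin2 and Fitm2 had theirs at day 2 in each genotype and Plin3 stayed between 102 and 185 CPM.

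After day 2 the members followed different courses within WT cells. Cidec went from 375 and 428 CPM at day 2 to 1000.03 and 1306 CPM at day 4 and 1129.8 and 1588 CPM at day 6, and day 6 exceeded day 2 by 1.76 ± 0.21 on the log2 scale (adjusted p = 0.000146). It was the only member called higher in this step, in which 14.8% of all genes were. Plin1 lay at 48.9 and 86.2 CPM at day 2, 75.0 and 144 CPM at day 4 and 145 and 188 CPM at day 6, 1.30 ± 0.48 higher, with day 2 and day 6 groups that did not overlap and an adjusted p of 0.0617. Cidea, at 5 counts in the day 2 pair and 24 and 44 counts at day 6, gave a ratio of 11.95 with a counting interval of 4.88 to 38.0 (adjusted p = 0.0613). With replicate number as a block, edgeR called Plin1 and Cidea higher as well (adjusted p = 0.0414 and 0.0214).

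Fitm2 and Plin5 went down over the same days in WT, 2 of 9 members against 11.8% of all genes. Plin5 passed the filter only through libraries of days 2 and 4, so its fall to day 6 is no independent support. Fitm2 fell from 315 and 397 CPM at day 2 to 160.2 and 223 CPM at day 6, a log2 fold change of -0.89 ± 0.23 (adjusted p = 0.00999). That call was lost without WT day 2 replicate 2 (-0.67, adjusted p = 0.116) or WT day 6 replicate 1 (-0.68, adjusted p = 0.113). Plin2 had 1641 and 3743 CPM at day 2, 714 and 1693 CPM at day 4 and 665 and 1363 CPM at day 6, -1.41 ± 0.54 (adjusted p = 0.0699), and passed without WT day 2 replicate 1 (-1.88, adjusted p = 0.0358). With replicate number as a block Plin2 was called lower (-1.39, adjusted p = 0.0115), as by DESeq2 (-1.39, adjusted p = 0.0285). In the WT and W330R-R181E conditions of days 2 to 6, Plin2 was 1.47 to 2.60 times higher in replicate 2 than in replicate 1, against 0.909 to 1.36 times in W330R. Plin4, at 1009 and 1592 CPM at day 4 and 582 and 1324 CPM at day 6, had nearly the same mean at day 2 and day 6 (0.00 ± 0.34, adjusted p = 1). Plin5 rested on 32 counts at day 2 and 11 at day 6, and its call was lost without WT day 2 replicate 1, WT day 2 replicate 2 or WT day 6 replicate 2 (adjusted p up to 0.262).

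In W330R cells Cidec was not called between day 2 and day 6. It lay at 217 and 218 CPM at day 2, 332 and 419 CPM at day 4 and 248 and 188 CPM at day 6, so that day 6 differed from day 2 by 0.004 ± 0.207 (adjusted p = 0.995). Plin2 fell from 1125 and 1323 CPM to 298 and 271 CPM, a change of -2.10 ± 0.56 (adjusted p = 0.0137), which brought it close to the 254 and 253 CPM of undifferentiated W330R cells. Fitm2 fell from 249 and 220.3 CPM to 57.3 and 56.3 CPM, -2.05 ± 0.23 (adjusted p = 8.5e-05). Plin1 did not pass either, with 46.6 and 66.2 CPM at day 2, 37.7 and 51.5 CPM at day 4 and 39.4 and 39.0 CPM at day 6 (-0.52 ± 0.47, adjusted p = 0.453). Plin4 lay at 592 and 676, 569 and 660.2, and 424 and 573 CPM on the same days (-0.35 ± 0.34, adjusted p = 0.499). Plin2 and Fitm2 were the 2 members called in W330R, where 11.3% of all genes fell. The Plin2 call was lost without W330R day 2 replicate 2, W330R day 6 replicate 1 or W330R day 6 replicate 2 (adjusted p = 0.0511, 0.0777 and 0.0885).

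Cells with the double substitution were followed over the same days. Cidec lay at 312 and 269 CPM at day 2, 535 and 588 CPM at day 4 and 263 and 309.9 CPM at day 6, with no change between days 2 and 6 that passed (-0.02 ± 0.21, adjusted p = 0.967). Plin2 fell from 1367 and 3557 CPM to 440.3 and 646 CPM (-2.18 ± 0.56, adjusted p = 0.013), and Fitm2 from 289.7 and 279 CPM to 70.0 and 107 CPM (-1.68 ± 0.23, adjusted p = 0.000303). Bscl2 fell from 25.3 and 37.9 CPM to 19.9 and 13.8 CPM (-0.90 ± 0.22, adjusted p = 0.0102), and Plin5 was called on 33 against 14 counts. Since Plin5 passed the filter only through libraries of days 2 and 4, its fall is no independent support. Plin2, Fitm2, Bscl2 and Plin5 were 4 of 9 members, where 10.3% of all genes were called lower. Of these, Fitm2 alone was called without each library in turn. Even Fitm2 did not pass in an edgeR fit of only the libraries compared (-1.68, adjusted p = 0.0733). The Plin2 call was lost without W330R-R181E day 2 replicate 2 (-1.34) or day 6 replicate 1 (-1.93), the Bscl2 call without day 2 replicate 2 (-0.58) or day 6 replicate 2 (-0.67), and the Plin5 call without any of those 3 libraries. Without day 6 replicate 1, Plin1 was called lower as well (-2.37, adjusted p = 0.0152), and the library then left, the shallowest of all, held 14.6 CPM of Plin1 against 46.9 in the one left out. The earlier Plin1 levels were 70.8 and 80.2 CPM at day 2 and 35.1 and 58.7 CPM at day 4.

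The test of whether these courses differed between genotypes gave no call among the members in the main edgeR fit. For W330R against WT in the step from day 2 to day 6, 0 of 9 members and 0.0895% of all genes were called, with 4 members at an unadjusted p under 0.05. Cidec came closest, with a difference of -1.76 ± 0.29 on the log2 scale (adjusted p = 0.0572). It was called by edgeR with replicate number as a block (-1.74, adjusted p = 0.0337) and without the filter on low counts (-1.76, adjusted p = 0.011). DESeq2 called Cidec (-1.76, adjusted p = 9.64e-06), as did edgeR without WT day 6 replicate 1 (-1.98, adjusted p = 0.0189). For W330R-R181E against WT, a comparison added after the values had been seen, 0 of 9 members and 0.0413% of all genes were called, with 4 members at an unadjusted p under 0.05. The Cidec difference was -1.78 ± 0.29 (adjusted p = 0.0901), called by DESeq2 together with Plin1 (-2.59, adjusted p = 0.0378), and by edgeR without WT day 6 replicate 1 (adjusted p = 0.0386). With the block Cidec was called there too (-1.78, adjusted p = 0.0476), and without the filter (-1.77, adjusted p = 0.0442). For W330R-R181E against W330R, 0 members and 0% of all genes were called, none of the members reached an unadjusted p under 0.05, and DESeq2 called 0.

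The levels of the members in W330R cells were then compared with WT at each stage. Before differentiation 0 of 9 members were called by edgeR, where 1.75% of all genes were called in either direction, and 1 member had an unadjusted p under 0.05. That was Plin4, at 458 and 472 CPM in W330R and 218 and 209.9 CPM in WT, 1.12 ± 0.35 higher (adjusted p = 0.148). The pairs did not overlap, and their own spread was small beside the spread over all conditions that this test uses. A fit of those 4 libraries alone, which has few residual degrees of freedom, gave 1.13 ± 0.04 (adjusted p = 7.02e-07). It also called Plin2 (0.23, adjusted p = 0.00302) and Plin3 (0.17, adjusted p = 0.0156), and the share of all genes it called is not given. DESeq2 called Plin4 too (adjusted p = 0.0358).

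At day 2, Cidec was the only member called, at 217 and 218 CPM in W330R against 375 and 428 CPM in WT, a log2 fold change of -0.88 ± 0.21 (adjusted p = 0.0426). This was 1 of 9 members where 1.18% of all genes were called lower, and the call was lost when any of the 4 libraries was left out (-0.98 to -0.77, adjusted p = 0.0637 to 0.27). Nor was Cidec called at day 2 in an edgeR fit of only the libraries compared (-0.87, adjusted p = 0.217). At day 4, Cidec (-1.62 ± 0.21, adjusted p = 0.00337) and Fitm2 (-1.34 ± 0.23, adjusted p = 0.00774) were called, 2 of 9 members against 3.40% of all genes. Fitm2 then lay at 113 and 117 CPM in W330R and at 245 and 335 CPM in WT. Without W330R day 4 replicate 1 neither Cidec (-1.45) nor Fitm2 (-1.29) passed. Fitm2 was also lost without W330R day 4 replicate 2 (-1.36) or WT day 4 replicate 2 (-1.11). An edgeR fit of only the libraries compared called neither Cidec (-1.63, adjusted p = 0.0929) nor Fitm2 (-1.34, adjusted p = 0.097). DESeq2 also called Plin1, Plin2 and Plin4 lower at day 4 (adjusted p = 0.0496, 0.0394 and 0.0191). With replicate number as a block, edgeR called Plin2 and Plin4 as well (adjusted p = 0.0316 and 0.0123), and without the filter on low counts Plin4 (adjusted p = 0.0404).

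At day 6 Cidec had its largest estimated difference, with 248 and 188 CPM in W330R and 1129.8 and 1588 CPM in WT, 6.23-fold lower (log2 fold change -2.64 ± 0.22, adjusted p = 0.000154). Fitm2 was 3.37-fold lower, at 57.3 and 56.3 CPM against 160.2 and 223 CPM (-1.75 ± 0.23, adjusted p = 0.000877). Both calls held without each of the 4 libraries. In an edgeR fit of only the libraries compared, Fitm2 did not pass (-1.76, adjusted p = 0.0548). Plin1 stood at 39.4 and 39.0 CPM against 145 and 188 CPM (-2.09 ± 0.49, adjusted p = 0.0234), and Cidea at 5 and 0 counts against 24 and 44, a ratio of 0.0371 with a counting interval of 0.0117 to 0.0908 (adjusted p = 0.0415). Those were 4 of 9 members, where 5.23% of all genes were called lower. Cidea had at most 5 counts in each W330R library and passed the filter only through libraries of the other genotypes. Its call is therefore no independent support. The Plin1 and Cidea calls were both lost without WT day 6 replicate 2, W330R day 6 replicate 1 or W330R day 6 replicate 2 (Plin1 adjusted p = 0.198, 0.143 and 0.159, Cidea 0.252, 0.13 and 0.232). Plin2, at 298 and 271 CPM against 665 and 1363 CPM, did not pass (-1.83 ± 0.55, adjusted p = 0.0588), nor did Plin4 (-0.93 ± 0.35, adjusted p = 0.122). DESeq2 called Plin2 (-1.85, adjusted p = 0.00562), as did edgeR without the filter on low counts (-1.82, adjusted p = 0.0135). With replicate number as a block, edgeR called Plin2 (-1.70, adjusted p = 0.0106) and Plin4 (-0.88, adjusted p = 0.0243). Both passed without WT day 6 replicate 1, the lower of the WT pair (Plin2 -2.26, adjusted p = 0.0326, Plin4 -1.41, adjusted p = 0.016).

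**Figure D2:**
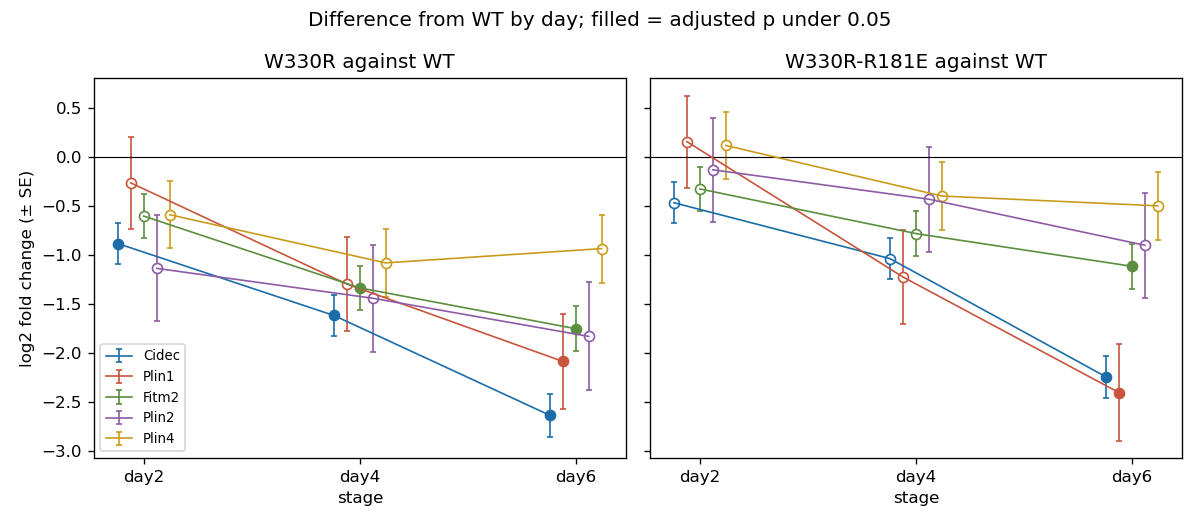
Log2 fold change from WT (vertical axis, error bars are SE) at days 2, 4 and 6 (horizontal axis) for 5 members, in W330R cells on the left and W330R-R181E cells on the right; filled points had an adjusted p under 0.05 by edgeR. Cidec lay at -0.88 at day 2 and -2.64 at day 6 in W330R and at -0.47 and -2.25 in W330R-R181E. The difference between those days was not called in the main edgeR fit and was called with a block for replicate number.

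Averaged over days 2, 4 and 6, 6 of 9 members were lower in W330R than in WT, where 14.8% of all genes were called lower. Among them, Cidea passed the filter through no W330R library, so its call is no independent support. The members' median log2 fold change was -1.22, and that of all genes 0.02. Cidec fell by 1.71 ± 0.12 on the log2 scale (adjusted p = 8.12e-06), Plin2 by 1.47 ± 0.31 (adjusted p = 0.00342), Fitm2 by 1.23 ± 0.13 (adjusted p = 3.63e-05), Plin1 by 1.22 ± 0.27 (adjusted p = 0.00602) and Plin4 by 0.87 ± 0.20 (adjusted p = 0.0053). Each of these 5 was lower in 6 of 6 same-numbered pairs of libraries and kept its call when each of the 12 libraries was left out. Same-numbered libraries deviated together across these days (r = 0.300 to 0.438 in WT and 0.131 to 0.343 in W330R). The 6 pairs may therefore not be independent, which leaving out 1 library does not test. Cidea, the sixth, rested on few counts and lost its call without 9 of the 12 libraries (adjusted p up to 0.12, without WT day 2 replicate 1). Plin3 (0.09 ± 0.11), Bscl2 (0.11 ± 0.12) and Plin5 (-0.32 ± 0.33) did not pass (adjusted p = 0.565, 0.54 and 0.501), and the sign of Plin5 turned without WT day 6 replicate 1.

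Markers of adipocytes and of mesenchymal cells were set beside these values. The summed adipocyte markers lay at 1148 to 1405 CPM in W330R and 3428 to 7456 CPM in WT at day 6, and the 7 mesenchymal markers (Col1a1, Col1a2, Ly6a, Pdgfra, Pdgfrb, Thy1 and Vim) at 11144 to 13771 CPM and 7786 to 11899 CPM. Cebpa, which encodes a regulator of the adipocyte programme, was lower by 2.21 ± 0.18 over days 2 to 6 (adjusted p = 8.9e-06), and Pparg by 0.62 ± 0.16 (adjusted p = 0.00986). Adipoq was lower by 1.23 ± 0.20 (adjusted p = 0.000556) and Fabp4 by 1.24 ± 0.27 (adjusted p = 0.00394), beside a median of -1.22 for the members. In such bulk RNA, fewer cells that had become adipocytes and less RNA per cell cannot be told apart. The part of either in the values of the members was not tested.

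Because the estimate for Plin4 had a positive sign before differentiation and a negative one after it, the difference between the mean of days 2 to 6 and the undifferentiated state was compared between the genotypes, another comparison added after the values had been seen and so no independent test of that sign change. Plin4 gave -1.99 ± 0.40 (adjusted p = 0.0109) and Fitm2 -1.01 ± 0.27 (adjusted p = 0.0369), 2 of 9 members where 2.91% of all genes were called lower. The W330R estimate for Plin4 against WT was 1.12 ± 0.35 before differentiation, which edgeR did not call, and -0.87 ± 0.20 after it, which it did. The Plin4 call was lost without any 1 of the 4 undifferentiated libraries (adjusted p = 0.0524 to 0.0768). Fitm2 was less secure and was called in 4 of 16 fits that each left out 1 library (adjusted p = 0.0214 to 0.193). Plin1 and Cidec were at 0 before differentiation, so no such difference is given for them.

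W330R-R181E cells were next set against W330R cells, and W330R-R181E against WT, which share libraries with the comparison above and are given side by side. Against W330R, 0 of 9 members were called at day 2, day 4 or day 6, where 2.67%, 1.91% and 1.50% of all genes were called in either direction. By an unadjusted p under 0.05 there were 0, 2 and 2 members, and DESeq2 also called 0 at each day. Over the mean of the 3 days, 4 members were higher in the double mutant, where 7.87% of all genes were. Plin2 was higher by 0.98 ± 0.31 (adjusted p = 0.0431), Plin4 by 0.61 ± 0.20 (adjusted p = 0.0492), Fitm2 by 0.49 ± 0.13 (adjusted p = 0.0191) and Cidec by 0.46 ± 0.12 (adjusted p = 0.0196). Bscl2 was the single member called lower (-0.41 ± 0.12, adjusted p = 0.0371), where 9.36% of all genes were. The members' median log2 fold change was 0.46, and that of all genes 0.01.

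All 5 of these had the same direction in 6 of 6 same-numbered pairs, which may not be independent, but they lay close to the threshold. Without W330R day 4 replicate 1 or W330R-R181E day 6 replicate 2, 0 members were called. Cidec was called in 9 of 12 fits that left out 1 library, also losing its call without W330R day 6 replicate 2, and Fitm2 in 8 of 12, also losing it without W330R day 2 replicate 2 or W330R-R181E day 4 replicate 2. Plin2 was called in 3 of 12, without W330R-R181E replicate 1 of day 2, 4 or 6. Plin4 was called in 2 of 12, without W330R-R181E replicate 1 of day 4 or 6, and Bscl2 in 2 of 12, without W330R-R181E day 2 replicate 2 or day 6 replicate 1. Cidea (28 and 0 counts in the double mutant at day 6) and Plin5 did not pass (adjusted p = 0.121 and 0.854). The log2 fold changes over these fits ran from 0.71 to 1.16 for Plin2, 0.48 to 0.71 for Plin4, 0.38 to 0.58 for Fitm2, 0.40 to 0.54 for Cidec and -0.51 to -0.32 for Bscl2. Plin1 did not pass (0.06 ± 0.27, adjusted p = 0.932). Its sign turned without W330R day 2 replicate 1, W330R day 4 replicate 1, W330R-R181E day 4 replicate 2 or W330R-R181E day 6 replicate 1 (-0.31 to -0.014).

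**Figure D3:**
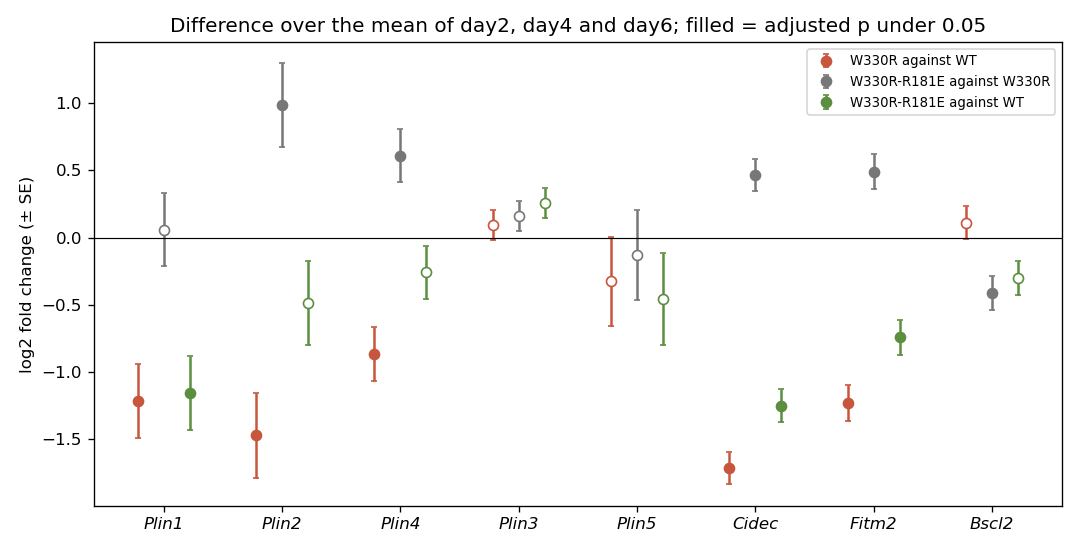
Log2 fold change over the mean of days 2, 4 and 6 (vertical axis, error bars are SE) for 8 members (horizontal axis) in 3 genotype comparisons, which share libraries; filled points had an adjusted p under 0.05, and Cidea is left out because it had at most 5 counts in each day 2 library. Plin2 and Plin4 lay at -1.47 and -0.87 in W330R against WT and at -0.49 and -0.26 in W330R-R181E against WT, while Plin1 lay at -1.22 and -1.16.

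Against WT, the double mutant showed 0 of 9 members called at day 2 and 0 at day 4, where 0% and 0% of all genes were called. There were 1 and 3 members with an unadjusted p under 0.05, and DESeq2 called 0 and 1, the latter being Cidec at day 4 (-1.05, adjusted p = 0.000722). At day 6, 3 of 9 members were lower, where 0.716% of all genes were. Cidec stood at 263 and 309.9 CPM against 1129.8 and 1588 CPM in WT, 4.74-fold lower (-2.25 ± 0.22, adjusted p = 0.00157), and was called without each library. An edgeR fit of only the libraries compared did not call Cidec (-2.24, adjusted p = 0.374), nor Plin1 or Fitm2 (adjusted p = 0.451 and 0.497). Plin1 stood at 46.9 and 14.6 CPM against 145 and 188 CPM (-2.41 ± 0.49, adjusted p = 0.0448). That call was lost without the shallow W330R-R181E day 6 replicate 2 (-1.83, adjusted p = 0.111) or WT day 6 replicate 2 (-2.21, adjusted p = 0.341). Fitm2 stood at 70.0 and 107 CPM against 160.2 and 223 CPM (-1.12 ± 0.23, adjusted p = 0.0391), lost without W330R-R181E day 6 replicate 1 (-0.84, adjusted p = 0.228) or WT day 6 replicate 2 (-0.86, adjusted p = 0.402).

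Over the mean of the 3 days, Cidec, Fitm2 and Plin1 were the 3 members lower in W330R-R181E than in WT, where 5.12% of all genes were. The members' median was -0.49 on the log2 scale, and that of all genes 0.00. Cidec was lower by 1.25 ± 0.12 (adjusted p = 0.000594), Fitm2 by 0.74 ± 0.13 (adjusted p = 0.00527) and Plin1 by 1.16 ± 0.27 (adjusted p = 0.0239). Cidec and Fitm2 kept their calls without each of the 12 libraries. An edgeR fit of only the libraries compared did not call Fitm2 (-0.73, adjusted p = 0.0727) or Plin1 (-1.15, adjusted p = 0.111). The Plin1 call was lost without W330R-R181E day 2 replicate 1, W330R-R181E day 4 replicate 1 or WT replicate 2 of day 2, 4 or 6 (adjusted p = 0.061 to 0.0786). Plin2 (-0.49 ± 0.31) and Plin4 (-0.26 ± 0.20) did not pass (adjusted p = 0.331 and 0.43). Bscl2 (-0.30 ± 0.13, adjusted p = 0.142) passed only without W330R-R181E day 2 replicate 2 (-0.41, adjusted p = 0.0407). The adipocyte markers summed to 2965 to 3958 CPM in the double mutant at day 2, above WT (2346 to 2793 CPM), and to 2328 to 2565 CPM at day 4, below WT (3560 to 4493 CPM). At day 6 they summed to 1391 to 2701 CPM and the mesenchymal markers to 9294 to 13073 CPM. Over the 3 days Cebpa was lower than in WT by 1.54 ± 0.18 (adjusted p = 0.000666) and higher than in W330R by 0.66 ± 0.18 (adjusted p = 0.0213). Pparg (-0.42 ± 0.16), Adipoq (-0.49 ± 0.20) and Fabp4 (-0.61 ± 0.27) did not pass against WT (adjusted p = 0.105, 0.12 and 0.158). Against W330R, Adipoq was higher by 0.74 ± 0.20 (adjusted p = 0.0194). Pparg (0.20 ± 0.16) and Fabp4 (0.63 ± 0.27) did not pass there (adjusted p = 0.448 and 0.128). The part of these marker differences in the values of the members was not tested.

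The relative amounts of the perilipins were described with CPM divided by the length of each gene's exons, from 2.09 kb for Plin5 to 5.78 kb for Plin4. In undifferentiated WT cells Plin2 made up 45.2% of the summed perilipin CPM per kb, Plin3 27.7% and Plin4 27.0%, and in undifferentiated W330R cells Plin4 led with 41.2%. At day 2 Plin2 took the largest share in each genotype, at 76.9% in WT, 69.3% in W330R and 72.5% in W330R-R181E. Its share at day 6 was 54.7%, 37.5% and 47.8% in the same order. In W330R at day 6, Plin4 had a higher mean share of 39.6%, ahead of Plin2 in replicate 2 and not in replicate 1. Plin1 made up 5.86% and 8.77% of the total in the WT day 6 libraries, 3.74% and 4.06% in W330R and 0.862% and 3.63% in W330R-R181E. So the share of Plin1 was higher in both WT libraries than in any mutant library of that day, while the Plin3 share was lower in WT (7.25%) than in W330R (18.9%) and W330R-R181E (13.7%). Plin5 never exceeded 0.0917%. These shares depend on the division by exon length. Without it, Plin2 still led in every day 2 library. In W330R-R181E at day 6, Plin4 then led with 46.8% and 48.5%, against 35.9% and 40.4% for Plin2. Plin4 then also led in both W330R libraries at day 4 (51.0% and 47.7%) and at day 6 (46.0% and 55.4%). At day 4 it led in replicate 1 of WT (52.3%) and of W330R-R181E (50.3%), and Plin2 led in replicate 2 of both.

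**Figure D4:**
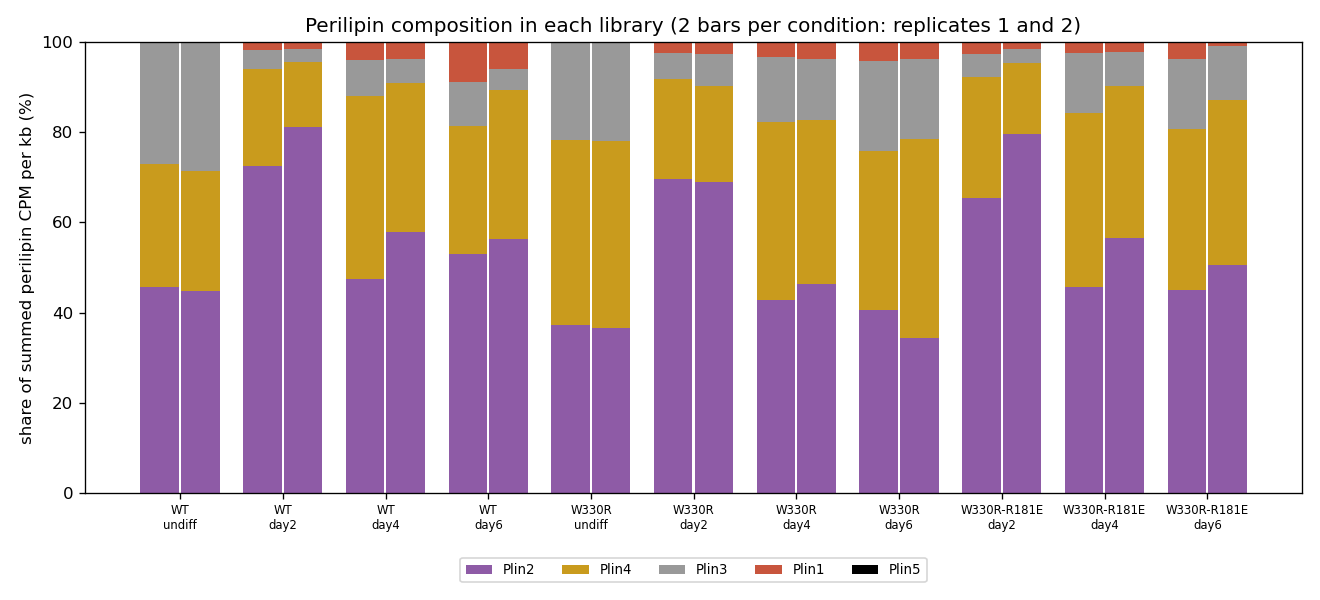
Stacked bars give, for each library (2 bars per condition), the share of each perilipin in the summed CPM per kb of exon, in percent. Plin2 held 65.3% to 81.1% at day 2 in all genotypes, and Plin1 reached 8.77% in a WT day 6 library and 0.862% in a W330R-R181E day 6 library, with Plin5 too small to see.

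Per kb of exon, Cidec was the most abundant member in WT cells at day 6, at 609 and 855 CPM per kb, ahead of Plin2 at 189 and 388 CPM per kb. At day 2 the order was the reverse, with Plin2 at 467 and 1066 CPM per kb and Cidec at 202 and 231 CPM per kb. In W330R at day 6, Cidec lay at 101 and 134 CPM per kb, Plin2 at 77.2 and 84.9, and Plin4 at 73.4 and 99.2. Without division by length, Plin4 was highest of these there at 424 and 573 CPM, then Plin2 at 298 and 271 and Cidec at 248 and 188.

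Ranked by mean CPM over the 11 conditions, Cidec was highest in WT at day 6 and day 4, whose pairs overlapped each other and lay above all other libraries. Then came W330R-R181E at day 4, apart from both neighbours, and WT at day 2, which overlapped W330R at day 4. Plin1 was highest in WT at day 6, just above WT at day 4 (145 against 144 CPM in the nearest libraries), and from there each condition overlapped the next down to W330R-R181E at day 6. For Plin2 the WT and W330R-R181E day 2 pairs overlapped at the top, and W330R at day 6 lay above both undifferentiated pairs without overlap. Plin4 was highest in WT at day 4, and each condition overlapped the next down to undifferentiated W330R, with undifferentiated WT alone at the bottom. Fitm2 ended with W330R at day 6 between W330R-R181E at day 6 and the undifferentiated cells, apart from both. Bscl2 was highest in W330R at day 2 (40.9 and 38.1 CPM) and lowest after differentiation in W330R-R181E at day 6 (19.9 and 13.8 CPM).

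Across the 11 condition means the members fell into groups by course, given as Pearson's r of log2 CPM and only as a description, since the means share libraries and the undifferentiated zeros weigh heavily. Plin1 and Cidec had r = 0.992, and Plin2 and Fitm2 had r = 0.952. Plin1 was most like Fabp4 (r = 0.994), the fatty acid carrier of adipocytes. Fitm2 was most like Rcl1 (0.996), Cluh (0.994) and Pex13 (0.994), and Plin2 most like Gphn (0.992). Cidec was most like Gm13509, Sh2b2 and Ntrk2 (0.993, 0.993 and 0.992). Plin3 ran against Plin2 (r = -0.58).

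Other genes of the lipid droplet and of triglyceride turnover were counted from a list of 24, of which 23 passed the filter. From undifferentiated to day 2 in WT, 17 of 23 rose, where 26.5% of all genes did, and 3 fell, where 24.4% did. From day 2 to day 6 in WT, 6 rose and 7 fell, where 14.8% and 11.8% of all genes did, the largest called changes being those of Cideb (2.35 ± 0.68, adjusted p = 0.0203), the liver member of the CIDE family, of Mgll, which encodes monoglyceride lipase (-1.77 ± 0.58, adjusted p = 0.037), and of Gpat3, listed as Agpat9, which starts glycerolipid synthesis (-1.67 ± 0.21, adjusted p = 9.39e-05). Over the mean of days 2 to 6 in W330R against WT, 16 of 23 were lower, where 14.8% of all genes were, with a median of -0.83 for the list, and 1 was higher (Hsd17b11, 0.43 ± 0.13, adjusted p = 0.0255, named after its value was seen), where 14.3% of all genes were called higher. The largest were Mgll (-2.62 ± 0.35, adjusted p = 0.000155), Acsl1, which activates fatty acids (-2.17 ± 0.16, adjusted p = 7.37e-06), and Agpat2, which makes phosphatidic acid (-2.02 ± 0.24, adjusted p = 6.34e-05). In W330R-R181E against W330R, 8 of 23 were higher and 0 lower, where 7.87% and 9.36% of all genes were, and against WT 10 of 23 were lower, where 5.12% were.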

How the data were processed

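Total RNA was sequenced in 22 libraries. The authors deposited whole-number counts per gene symbol, without normalisation. Their processing notes name kallisto, DESeq2 1.40 and the build GRCm39, with no roles given, and whether counting used strand is not given in the sources used here. The column names of the double mutant give alanine in place of glutamate at its second substitution, so columns were assigned to libraries by their genotype, day and number.

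Genes of the deposited table were filtered with filterByExpr (minimum count 10, minimum total 15), normalised by TMM and fitted with the quasi-likelihood model of edgeR 4.0.16 (R 4.3.3), with 1 mean for each of 11 conditions, and p-values were adjusted by Benjamini-Hochberg over 14520 genes. SE is the log2 fold change divided by the square root of F. Libraries held 8859501 to 47453908 counts. Alternatives were DESeq2 1.42.0, RLE scaling, no filter, only the libraries compared, a block for replicate number, and omission of each library in turn. Beside the fixed comparisons, 2 were added after values were seen. Against a condition at 0, folds used a limit of 3 counts per library, and intervals are exact at 95%, for counting error only. The scripts were tested on simulated data. Exon lengths came from GENCODE vM21 (build GRCm38). All 9 members are named, and of the other lipid droplet genes the 3 largest called changes in 2 comparisons. The members and lists were chosen with earlier results of these data known. Same-numbered libraries of days 2 to 6 deviated together in 27 of 36 pairs of conditions (r above 0.1), and no label ties them. No replicate pair agreed within sampling noise.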

Additional observations from a re-analysis of the deposited data

Results flagged for a closer look

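The change from the undifferentiated state to the mean of days 2 to 6 differed between W330R and WT by edgeR's interaction test for Plin4 (-1.99 ± 0.40, adjusted p = 0.0109) and for Fitm2 (-1.01 ± 0.27, adjusted p = 0.0369). Plin4 lay at 458 and 472 CPM in W330R and at 218 and 210 CPM in WT before differentiation, and at 424 and 573 CPM against 582 and 1324 CPM at day 6. Fitm2 lay at 26.1 and 31.3 CPM against 32.8 and 34.0 CPM before differentiation, and at 57.3 and 56.3 CPM against 160 and 223 CPM at day 6. The comparison was added after the values of Plin4 had been seen, so it describes the change of sign and is no independent test of it. The Plin4 call was lost without any 1 of the 4 undifferentiated libraries (adjusted p = 0.0524 to 0.0768), and Fitm2 was called in 4 of 16 fits that each left out 1 library.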

How the results depend on the processing

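Every count below is of members called out of 9. The share of all genes called in these alternative fits is not given. The counts therefore describe how stable the calls were and do not set the members against all genes. TMM replaced by RLE scaling changed none of the 22 comparisons by more than 1.5 times, and no scaling moved the median of all genes by 0.1 on the log2 scale. With DESeq2, W330R against WT gave 1 call undifferentiated (0 by edgeR) and 5 at day 4 (2 by edgeR), W330R-R181E against WT gave 1 at day 4 (0), and the differences from WT in the step from day 2 to day 6 gave 1 for W330R (0) and 2 for W330R-R181E (0). Without the filter on low counts, day 6 against day 2 in WT gave 5 (3) and both of those differences gave 1 (0). With only the libraries compared in the fit, W330R against WT gave 3 undifferentiated (0), 0 at day 2 (1), 0 at day 4 (2) and 2 at day 6 (4). That fit gave 0 for W330R-R181E against WT at day 6 (3), 1 over the mean of days (3), 1 for day 6 against day 2 in WT (3) and 0 in W330R-R181E (4). It has few residual degrees of freedom.

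Replicate numbers recur in each condition. Same-numbered libraries of days 2 to 6 had deviations correlated at -0.021 to 0.534, and at -0.066 to 0.030 with the undifferentiated ones, and no label ties them. The correlation was above 0.1 in 27 of 36 pairs of conditions of days 2 to 6 and not in the rest, so the fit without the block was kept. With the replicate number as a block, W330R against WT gave 1 call undifferentiated and 4 at day 4, day 6 against day 2 in WT gave 6, and both differences from WT in that step gave 1, and no other count moved by over 1.5 times. The calls in those differences were Cidec for W330R (-1.74, adjusted p = 0.0337) and for W330R-R181E (-1.78, adjusted p = 0.0476). Plin2 (-1.70, adjusted p = 0.0106) and Plin4 (-0.88, adjusted p = 0.0243) were called at day 6 in W330R against WT with the block.

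Leaving out each library in turn, W330R against WT gave 0 to 0 calls at day 2, 0 to 2 at day 4 and 2 to 6 at day 6. W330R-R181E gave 0 to 5 against W330R over the mean of days and 1 to 3 against WT at day 6. Day 6 against day 2 gave 1 to 3 in WT, 1 to 2 in W330R and 1 to 4 in W330R-R181E. Both differences from WT in that step gave 0 to 1, and the difference between days 2 to 6 and undifferentiated gave 0 to 2. The log2 fold change over the mean of days turned sign for Plin5 in W330R against WT (-0.53 to 0.0041), for Plin1 in W330R-R181E against W330R (-0.31 to 0.25) and for Plin5 there (-0.49 to 0.025). The causes were not tested. Depth limits Plin5 and Cidea, with at most 44 counts in a library, and 2 libraries per condition limit all members.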
